A study of Homo sapiens with 6 samples.

Results

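Serine, asparagine and folate-bound single carbons are made by a small set of enzymes, and 10 of their genes were examined here in leukaemia cells given the drug AI-10-49: ASNS, PHGDH, PSAT1, PSPH, SHMT2, MTHFD2, MTHFD1L, MTHFD1, ALDH1L2 and PCK2. They were taken by gene symbol from a deposited table of 6339 rows, as a set drawn up with earlier results of these data known. Of the 10 genes, 8 had a row of their own, and MTHFD2 and ALDH1L2 were not analysed here. The cells are ME-1, an established human leukaemia line with the inv(16) rearrangement, which joins CBFB to MYH11 and yields the fusion protein CBFβ-SMMHC. AI-10-49 is an inhibitor of that fusion protein. The tested cultures received AI-10-49 at 1 µM for 6 h and the control cultures received the solvent DMSO for 6 h, with 3 independent experiments per treatment according to the labels, all in this single line. Libraries were made from total RNA of whole cultures, so more RNA in every cell and a larger share of responding cells cannot be told apart.

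PHGDH, PSAT1 and PSPH act in sequence in the cytosol to turn a glycolytic intermediate into serine, and ASNS makes asparagine from aspartate with glutamine as the nitrogen donor. In mitochondria SHMT2 splits serine into glycine and a carbon unit that tetrahydrofolate carries. MTHFD2 and MTHFD1L then oxidise and release that unit as formate, ALDH1L2 can burn it to carbon dioxide, and in the cytosol MTHFD1 takes formate up again for the synthesis of purines and thymidylate. PCK2, the mitochondrial phosphoenolpyruvate carboxykinase, feeds carbon from the citric acid cycle towards the same glycolytic intermediates. Genes of these pathways are textbook targets of ATF4, the transcription factor of the amino acid response, and several are also known targets of MYC.

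Promoter sequence was available for 7 of the 10 genes, and PSPH, SHMT2 and ALDH1L2 were not looked at in this way. The windows ran from 250 bases before to 50 bases after each RefSeq start on GRCh38.p14, 11 windows in all since ASNS and MTHFD1L have several starts. They were searched on both strands for TGATGNAA, the core of the element that ATF4 and C/EBP factors bind, for the E-box CACGTG, which MYC and many other factors bind, and for the CCAAT box. No match overlapped a match of another motif. TGATGNAA was found in windows of ASNS and MTHFD1L, and in 3.62% of all 35116 windows of the RefSeq table. CACGTG was found in windows of MTHFD1L and MTHFD1, and in 7.26% of all windows. CCAAT was found for 6 of the 7 genes, all except ASNS, and in 34.6% of all windows. These matches describe letters, and binding was not measured. The sequences below are shown because ASNS and PSAT1 changed most among the enzymes, while MTHFD1L and MTHFD1 changed in opposite directions. Capitals mark the motif matches, and each run reads 5′ to 3′ on the gene's strand. For ASNS (chr7:97872409-97872658, minus strand), PSAT1 (chr9:78296875-78297124, plus strand) and MTHFD1 (chr14:64388103-64388352, plus strand) the run holds the 250 bases before the start. For MTHFD1L, whose starts lie close together, only the site itself with 11 bases on each side is given (chr6:150866346-150866375, plus strand).
ASNS: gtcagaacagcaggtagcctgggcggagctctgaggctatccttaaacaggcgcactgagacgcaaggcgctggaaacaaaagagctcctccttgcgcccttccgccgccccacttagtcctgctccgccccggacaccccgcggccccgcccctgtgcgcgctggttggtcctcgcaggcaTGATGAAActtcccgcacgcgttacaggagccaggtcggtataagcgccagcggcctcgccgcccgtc
PSAT1: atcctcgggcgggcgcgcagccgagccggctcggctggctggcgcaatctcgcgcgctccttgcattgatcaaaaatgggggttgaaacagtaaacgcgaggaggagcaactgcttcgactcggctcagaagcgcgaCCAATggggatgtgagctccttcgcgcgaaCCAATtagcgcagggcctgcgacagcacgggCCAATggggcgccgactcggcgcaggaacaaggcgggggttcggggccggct
MTHFD1: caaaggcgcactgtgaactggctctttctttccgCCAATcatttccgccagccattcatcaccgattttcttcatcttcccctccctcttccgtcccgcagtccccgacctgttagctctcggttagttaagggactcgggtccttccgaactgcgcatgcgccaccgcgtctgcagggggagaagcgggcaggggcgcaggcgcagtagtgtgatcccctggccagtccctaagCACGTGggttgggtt
MTHFD1L: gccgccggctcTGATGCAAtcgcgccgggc

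In ASNS the capitals spell TGATGAAA, which begins 68 bases before the start. In PSAT1 CCAAT occurs 3 times, beginning 113, 83 and 52 bases before the start, and neither other motif is in the window. In MTHFD1 the E-box begins 15 bases before the start and a CCAAT box 216 bases before it. Another CCAAT box, on the other strand, lies 35 bases after the start, beyond the run shown. In MTHFD1L the site spells TGATGCAA and begins 129 bases before the most downstream of 3 neighbouring starts. An E-box begins 154 bases and a CCAAT box 193 bases before that start.

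Levels are given in FPKM, by definition fragment numbers scaled to transcript length and to all fragments mapped, which puts genes of different length on 1 scale. Whether the authors' tools scaled libraries in another way was not examined here. The deposited rows are a selection in which nearly every row differs between the groups: of 6230 rows tested, 46.2% were called higher with AI-10-49, 49.1% were called lower and 95.3% were called in either direction. The groups did not overlap in 96.2% of tested rows. A call therefore says little about a gene by itself, and the size and direction of its change carry the description. Among the libraries, AI-10-49 replicate 2 stands apart. Its highest value was 159 FPKM, against 1843 and 1877 FPKM in the other AI-10-49 libraries and 1717 to 2028 FPKM in DMSO libraries, and fold changes of the enzymes are also given without it. The rows of the table hold 5 of 8 myeloid progenitor and granulocyte markers and all 4 eosinophil and mast cell markers that were looked for. The summed level of those 5 ran from 107 to 131 FPKM with AI-10-49 and from 252 to 280.5 FPKM with DMSO. That of the 4 eosinophil and mast cell genes ran from 83.5 to 106 FPKM with AI-10-49 and from 397 to 469 FPKM with DMSO. Rows were present for 2 of 3 T and NK cell markers, 2 of 3 B cell markers and 1 of 3 erythroid markers. Their levels, summed within each lineage, were lower with AI-10-49 as well. CD3D and CD3E, of T cells, summed to 16.9 to 17.2 FPKM with AI-10-49 and 32.6 to 34.3 FPKM with DMSO. CD3D alone averaged 16.5 FPKM in AI-10-49 replicates 1 and 3, so nearly all of that sum was CD3D there. CD79A and CD79B, of B cells, summed to 8.72 to 10.6 FPKM with AI-10-49 and 24.8 to 29.96 FPKM with DMSO, and the erythroid gene KLF1 read 3.28 to 4.004 FPKM with AI-10-49 and 8.76 to 9.60 FPKM with DMSO. The part of these shifts in the results below was not tested.

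After 6 h with AI-10-49, 6 of the 8 measured enzyme genes were higher and MTHFD1 was lower, and SHMT2 did not pass the threshold with all libraries in the fit. By log2 fold change of FPKM + 1, PSAT1 and ASNS rose most and nearly alike, then PCK2 and PHGDH, then PSPH and MTHFD1L. By the ratio of mean FPKM, PHGDH (4.38) was ahead of PCK2 (3.60). The share called in either direction, 7 of 8, is near that of the whole table. The median log2 fold change of the 8 enzymes was 1.25, and that of all tested rows was -0.28. All fold changes are log2 differences of FPKM + 1, AI-10-49 minus DMSO, with adjusted p-values from limma over all tested rows and a threshold of 0.05.

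**Figure D1:**
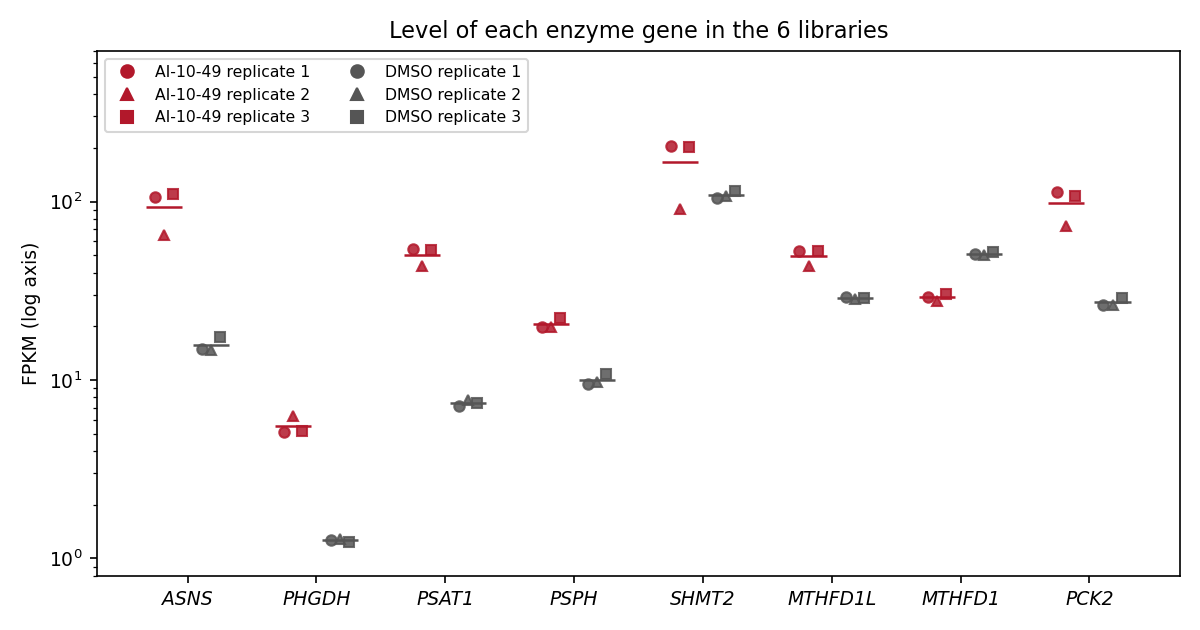
FPKM (log axis) of the 8 enzyme genes in the 6 libraries, AI-10-49 in red and DMSO in grey, with 1 symbol per replicate number and a line at each group mean. AI-10-49 libraries lie above DMSO libraries in ASNS, PHGDH, PSAT1, PSPH, MTHFD1L and PCK2 and below them in MTHFD1, while in SHMT2 replicate 2 at 90.3 FPKM lies below the DMSO libraries.

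PHGDH, which opens the serine pathway by oxidising phosphoglycerate, had the lowest level of the 8 enzymes. It stood at 5.10, 6.30 and 5.19 FPKM in the AI-10-49 libraries, against 1.28, 1.28 and 1.23 FPKM in the DMSO libraries. The groups lie far apart, with a 4.38-fold higher mean under AI-10-49. The log2 fold change was 1.52 ± 0.09 (SE, limma adjusted p = 1.32e-08). On the FPKM + 0.1 scale, which compresses low values less, it was 2.04, and without AI-10-49 replicate 2 it was 1.44.

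PSAT1, the transaminase of the second step, showed the largest change with all libraries in the fit. It read 54.3, 43.3 and 53.8 FPKM with AI-10-49, against 7.10, 7.71 and 7.45 FPKM with DMSO. Every AI-10-49 library was above every DMSO library, and the ratio of the means was 6.80. The log2 fold change of 2.61 ± 0.08 (SE, limma adjusted p = 6.94e-11) was exceeded by 21 of the 6230 rows. PSAT1 and ASNS were both at 2.71 when AI-10-49 replicate 2 was left out.

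PSPH, the phosphatase that releases free serine, moved less. Its values were 19.8, 19.9 and 22.4 FPKM with AI-10-49, against 9.50, 9.69 and 10.9 FPKM with DMSO. The groups did not overlap, and the mean was 2.07-fold higher with AI-10-49 (log2 fold change 0.98 ± 0.07 SE, limma adjusted p = 7.21e-08). The log2 fold change was 1.00 without AI-10-49 replicate 2. PSPH has a near-identical pseudogene, and no source used here says how the authors' quantification divided fragments between such copies.

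The balance of the 3 serine enzymes shifted with these unequal changes. PSAT1 stood at 2.18 to 2.74 times the level of PSPH in AI-10-49 libraries, against 0.686 to 0.796 times in DMSO libraries. PSPH was thus the more abundant of the pair in each DMSO library and the less abundant in each AI-10-49 library. PHGDH stayed below both, but the gaps moved in opposite directions. PSAT1 stood at 6.88 to 10.7 times the PHGDH level with AI-10-49 and at 5.57 to 6.07 times with DMSO. PSPH stood at 3.17 to 4.31 times the PHGDH level with AI-10-49 and at 7.45 to 8.84 times with DMSO.

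ASNS, the asparagine synthetase, rose nearly as much as PSAT1. Its levels were 106, 65.2 and 110.0 FPKM with AI-10-49, against 15.0, 14.6 and 17.5 FPKM with DMSO. All AI-10-49 libraries were above all DMSO libraries, although replicate 2 was much lower than the other AI-10-49 libraries. The ratio of means was 5.97, and the log2 fold change 2.47 ± 0.16 (SE, limma adjusted p = 2.40e-08) was exceeded by 23 rows of the table. Without AI-10-49 replicate 2 the log2 fold change was 2.71 ± 0.08 (SE).

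PCK2, the mitochondrial phosphoenolpyruvate carboxykinase, had 112, 73.4 and 108 FPKM with AI-10-49, against 26.3, 26.4 and 28.9 FPKM with DMSO. The groups were apart, with a 3.60-fold higher mean under AI-10-49. Its log2 fold change was 1.79 ± 0.15 (SE, limma adjusted p = 1.70e-07), or 1.98 without AI-10-49 replicate 2. PCK2 and ASNS had overlapping levels in AI-10-49 libraries, where the ratio of PCK2 to ASNS was 0.981 to 1.13, against 1.65 to 1.80 in DMSO libraries.

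Among the folate enzymes, MTHFD1L, the mitochondrial synthetase that releases formate, rose. It read 52.7, 43.3 and 52.6 FPKM with AI-10-49, against 29.3, 28.6 and 28.8 FPKM with DMSO. The groups did not overlap and the ratio of means was 1.72 (log2 fold change 0.75 ± 0.09 SE, limma adjusted p = 6.06e-06). Its log2 fold change was 0.84 without AI-10-49 replicate 2.

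MTHFD1, its cytosolic trifunctional counterpart, was the 1 enzyme of the set that fell. It stood at 29.1, 27.8 and 30.1 FPKM with AI-10-49, against 50.6, 50.1 and 52.5 FPKM with DMSO. Replicates were tight in both groups, and the AI-10-49 mean was 0.568 of the DMSO mean. The log2 fold change was -0.80 ± 0.08 (SE, limma adjusted p = 9.96e-07), or -0.77 without AI-10-49 replicate 2.

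The order of MTHFD1L and MTHFD1 turned round. MTHFD1L stood at 1.56 to 1.81 times the level of MTHFD1 in AI-10-49 libraries and at 0.548 to 0.579 times in DMSO libraries. The log2 ratio of MTHFD1L to MTHFD1 (each FPKM + 1) within a library averaged 0.75 ± 0.11 with AI-10-49 and -0.80 ± 0.04 with DMSO (SD, n = 3 each). Library scaling cancels from such a ratio, apart from the added 1. Readings that depend on level, described below for AI-10-49 replicate 2, do not cancel. The log2 ratio in that library was 0.62, against 0.84 and 0.78 in AI-10-49 replicates 1 and 3. The difference between the group averages was 1.55. Its p was 0.1 by an exact two-sided permutation test over the 6 libraries, which cannot go lower with 3 against 3. Of 3 such ratios of a mitochondrial to a cytosolic enzyme that were planned, this was the 1 with both genes measured.

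SHMT2, the mitochondrial serine hydroxymethyltransferase, had the highest mean level of the 8 enzymes in both groups. Its values were 205, 90.3 and 201 FPKM with AI-10-49, against 104, 107 and 114 FPKM with DMSO. Replicates 1 and 3 of AI-10-49 were well above the DMSO libraries and replicate 2 was below them, so the groups overlapped. With all libraries the log2 fold change was 0.51 ± 0.33 (SE, limma adjusted p = 0.152), which did not pass. Without AI-10-49 replicate 2 it was 0.90 ± 0.07 (SE, limma adjusted p = 3.78e-07), in a fit that called 46.4% of 6228 rows higher, and 7 of the 8 enzymes were then called higher. The ratio of means was 1.52 with that library and 1.87 without it.

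**Figure D2:**
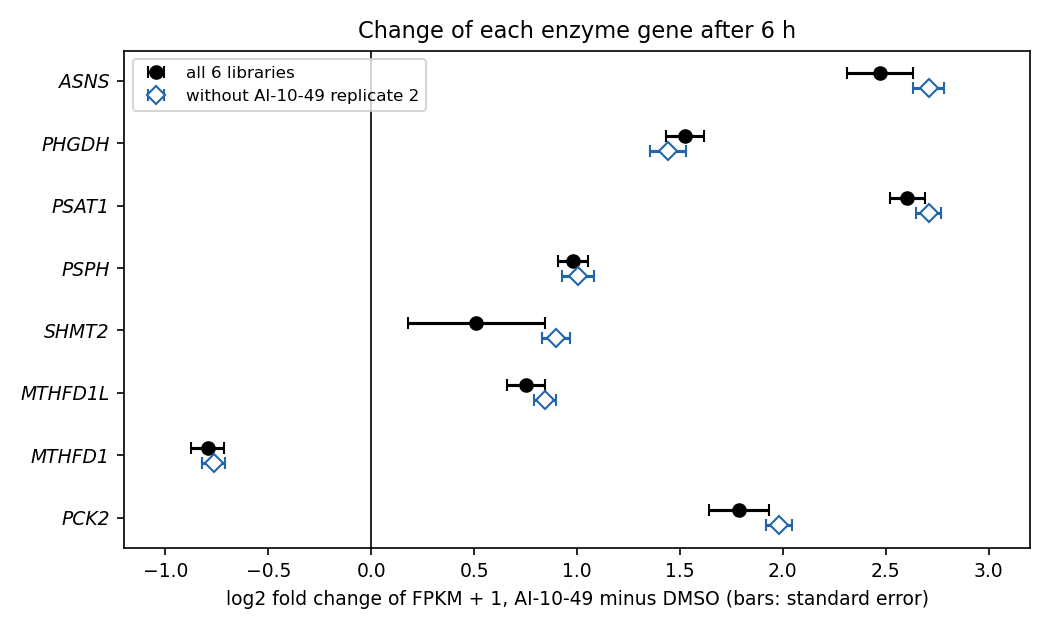
Log2 fold change of FPKM + 1 (horizontal axis, AI-10-49 minus DMSO) with its standard error for each enzyme gene, with all 6 libraries (filled circles) and without AI-10-49 replicate 2 (open diamonds). SHMT2 moves from 0.51 to 0.90 when that library is left out, and MTHFD1 is the only gene of the 8 left of the line at 0 in both fits.

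The low readings of AI-10-49 replicate 2 followed level. Set against the mean of AI-10-49 replicates 1 and 3, replicate 2 read 1.22 for PHGDH, 0.945 for PSPH, 0.939 for MTHFD1, 0.823 for MTHFD1L, 0.802 for PSAT1, 0.666 for PCK2, 0.604 for ASNS and 0.444 for SHMT2. Each of these ratios lies between the 5th and the 95th percentile of other rows within 1.2-fold of that gene's level. For SHMT2 the 59 rows of like level had a median ratio of 0.422, and for ASNS the 174 rows of like level had a median of 0.599. What set this library apart was not tested.

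**Figure D3:**
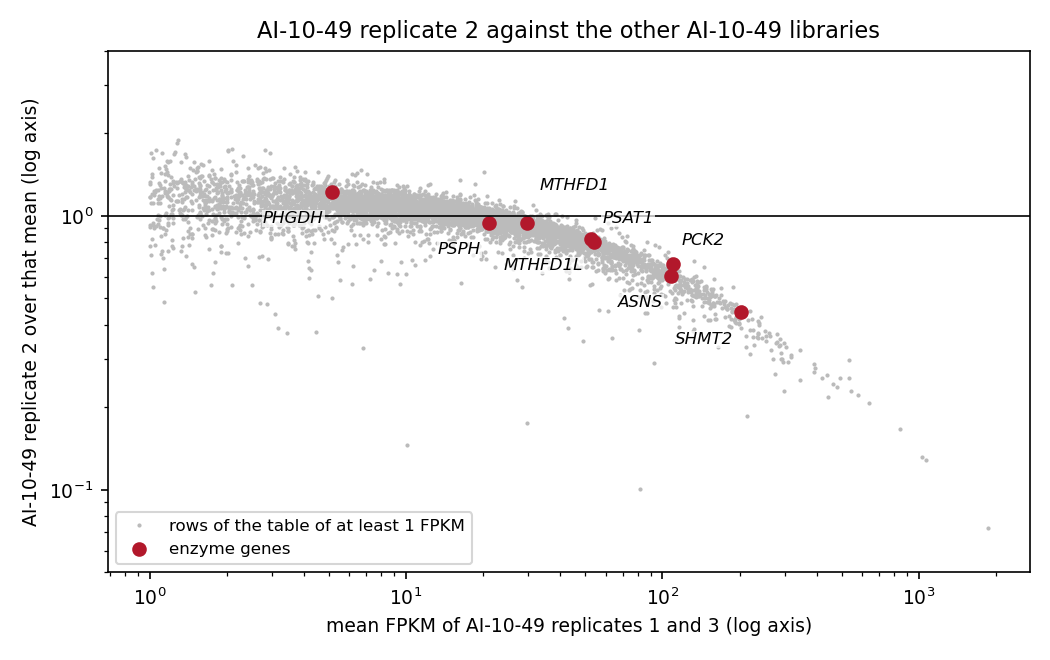
AI-10-49 replicate 2 divided by the mean of AI-10-49 replicates 1 and 3 (vertical log axis) against that mean in FPKM (horizontal log axis), with table rows of at least 1 FPKM in grey and the 8 enzyme genes in red. The ratio falls with level, and the enzymes lie within the grey band, PHGDH at 1.22 and SHMT2 at 0.444.

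The levels of the enzymes also changed order. In DMSO libraries the order of the means from high to low was SHMT2, MTHFD1, MTHFD1L, PCK2, ASNS, PSPH, PSAT1 and PHGDH, and only the neighbours MTHFD1L and PCK2 had overlapping ranges. In AI-10-49 libraries it was SHMT2, PCK2, ASNS, PSAT1, MTHFD1L, MTHFD1, PSPH and PHGDH. Ranges of neighbours overlapped there between SHMT2 and PCK2, PCK2 and ASNS, and PSAT1 and MTHFD1L. Without replicate 2, of these pairs only PCK2 and ASNS overlapped.

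Summed over the 8 genes, the enzymes came to 585, 370 and 584 FPKM with AI-10-49, against 244, 246 and 262 FPKM with DMSO. The sum was higher in every AI-10-49 library, and lowest of these in replicate 2. ASNS made up 17.6% to 18.9% of it with AI-10-49 and 5.96% to 6.69% with DMSO. PCK2 made up 18.5% to 19.9% with AI-10-49 and 10.8% to 11.0% with DMSO. MTHFD1 made up 4.98% to 7.52% with AI-10-49 and 20.1% to 20.8% with DMSO. SHMT2 made up 24.4% to 35.1% with AI-10-49, lowest in replicate 2, and 42.9% to 43.8% with DMSO.

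**Figure D4:**
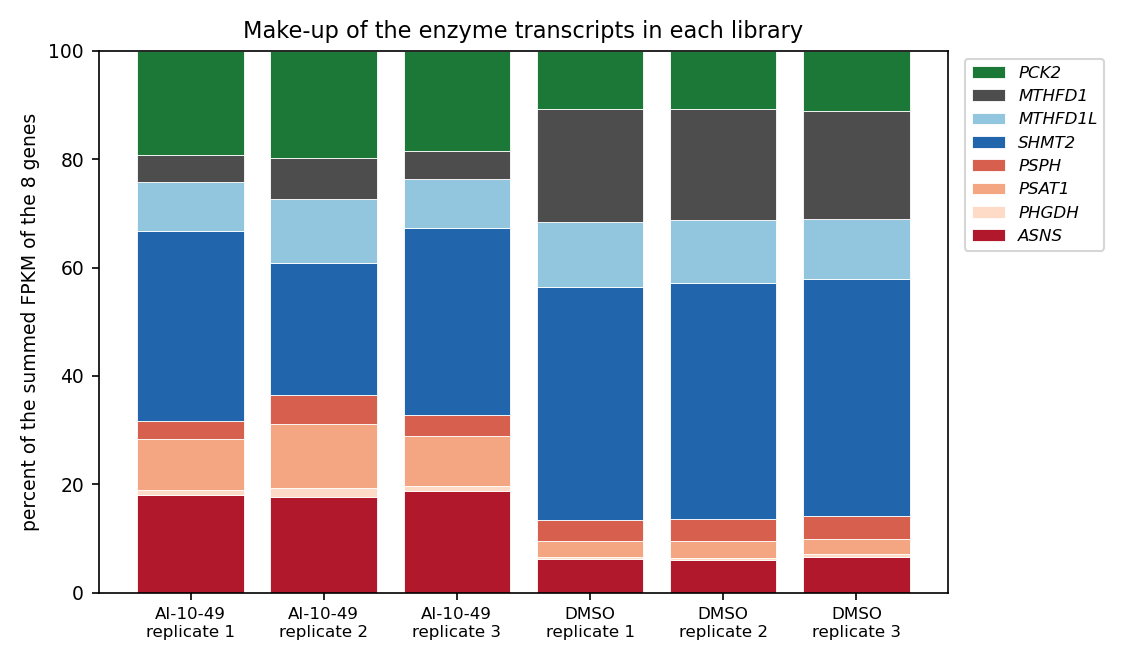
Share of each gene in the summed FPKM of the 8 enzymes (vertical axis, percent) in each library, AI-10-49 on the left and DMSO on the right. ASNS, PSAT1 and PCK2 take larger shares in AI-10-49 libraries, and MTHFD1 shrinks to between 4.98% and 7.52%.

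Genes around these enzymes in the same pathways went in both directions. Of all tested rows 46.2% were called higher and 49.1% lower, so being called on these lists says little by itself. Without AI-10-49 replicate 2, 2892 of all 6228 rows tested were called higher and 3175 lower. Folate cycle and glycine cleavage genes were called lower in 7 and higher in 2 of 9 measured genes (22 on the list), with a median log2 fold change of -0.54. SLC19A1, the reduced folate carrier, averaged 5.01 ± 0.66 FPKM with AI-10-49 and 21.8 ± 0.58 FPKM with DMSO (SD, n = 3 each; log2 fold change -1.93, limma adjusted p = 4.42e-10). TYMS, thymidylate synthase, which uses folate-bound carbon, had a log2 fold change of -1.55. Of the glycine cleavage genes, GCSH, the carrier protein, fell (-1.15), and GLDC, the decarboxylase, read higher (1.04) at a very low level. GLDC, among the 2 called higher, met the filter of 1 FPKM only through its AI-10-49 mean. Its call is therefore no separate support for a rise in glycine cleavage. GLDC averaged 1.28 ± 0.10 FPKM with AI-10-49 and 0.108 ± 0.06 FPKM with DMSO (SD, n = 3 each), and its log2 fold change was 2.77 on the FPKM + 0.1 scale.

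In the methionine cycle, methionine salvage and transsulfuration, 5 of 7 measured genes (19 on the list) were called lower and 2 higher, with a median of -0.50. With AI-10-49 replicate 2 left out, 4 were called lower and 2 higher, with a median of -0.33. MAT2A, which makes the methyl donor S-adenosylmethionine, averaged 38.8 ± 4.17 FPKM with AI-10-49 and 192 ± 8.33 FPKM with DMSO (SD, n = 3 each), a log2 fold change of -2.28 ± 0.16 (SE, limma adjusted p = 5.01e-08). MTAP of methionine salvage (-1.39) and MTR, methionine synthase, which takes a methyl group from folate (-0.65), fell as well. CBS, which joins serine to homocysteine at the entry to transsulfuration, rose to 26.3 ± 0.37 FPKM with AI-10-49, against 11.1 ± 0.68 FPKM with DMSO (SD, n = 3 each; log2 fold change 1.18).

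Enzymes that make other non-essential amino acids split, with 3 called higher, 4 called lower and 1 not past the threshold among 8 measured (23 on the list; median -0.53). The fit without AI-10-49 replicate 2 called 3 higher and 5 lower, with a median of -0.35. The transaminase genes GPT2, which makes alanine, and GOT1, which makes aspartate in the cytosol, rose. GPT2 averaged 31.2 ± 1.11 FPKM with AI-10-49 and 5.14 ± 0.41 FPKM with DMSO (SD, n = 3 each), a log2 fold change of 2.39 ± 0.07 (SE, limma adjusted p = 2.76e-11). GOT1 changed by 1.30. The proline pathway genes ALDH18A1 (-1.19) and PYCRL (-1.38) fell.

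Of 13 measured transporters of serine, asparagine and other neutral amino acids (22 on the list), 7 were called higher, 5 lower and 1 did not pass, and the median was 0.48. The counts were 8 higher and 5 lower without AI-10-49 replicate 2. SLC1A4, a carrier of serine and alanine, averaged 48.4 ± 5.20 FPKM with AI-10-49 and 21.0 ± 0.60 FPKM with DMSO (SD, n = 3 each; log2 fold change 1.16). SLC7A5 and SLC3A2, the paired subunits of a large neutral amino acid exchanger, and SLC43A2 changed by 1.45, 1.97 and 1.15. Without AI-10-49 replicate 2 SLC3A2 changed by 2.62.

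Among glycolytic and gluconeogenic enzymes next to PHGDH and PCK2, 3 were called lower, 2 higher and 1 did not pass of 6 measured (18 on the list; median -0.68). Leaving out AI-10-49 replicate 2 gave 4 lower and 2 higher, with a median of -0.52. PGAM1, which draws phosphoglycerate down the glycolytic path, averaged 78.7 ± 24.0 FPKM with AI-10-49 and 174 ± 12.6 FPKM with DMSO (SD, n = 3 each; log2 fold change -1.18, or -0.90 without AI-10-49 replicate 2). GLYCTK, glycerate kinase, rose by 0.57, and ALDOC, an aldolase, changed by -0.28. PGK1, which makes phosphoglycerate, changed by -1.09 with an adjusted p of 0.0486 in limma, and lost its call in 10 of 14 alternative fits, with an adjusted p of 0.166 without DMSO replicate 3. It changed by -0.68 without AI-10-49 replicate 2 (limma adjusted p = 1.22e-05).

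Of 13 measured transcription factors and regulators of these enzymes (17 on the list), 10 were called higher and 3 lower. The median was 0.78, and of all tested rows 46.2% were called higher and 49.1% lower. ATF3 (3.55), DDIT3 (2.81) and TRIB3 (2.61), all known to be induced by ATF4, rose, and MYC changed by -3.16. The others called lower were EIF2AK4 (-0.56) and EIF2AK1 (-0.37), while EIF2AK3 was higher (0.38). ATF4 itself was not analysed here. In the same fit ASNS, PHGDH, PSAT1, PSPH, MTHFD1L and PCK2 were higher, MTHFD1 was lower and SHMT2 did not pass the threshold. Whether any of these factors acted on the enzymes was not tested.

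**Figure D5:**
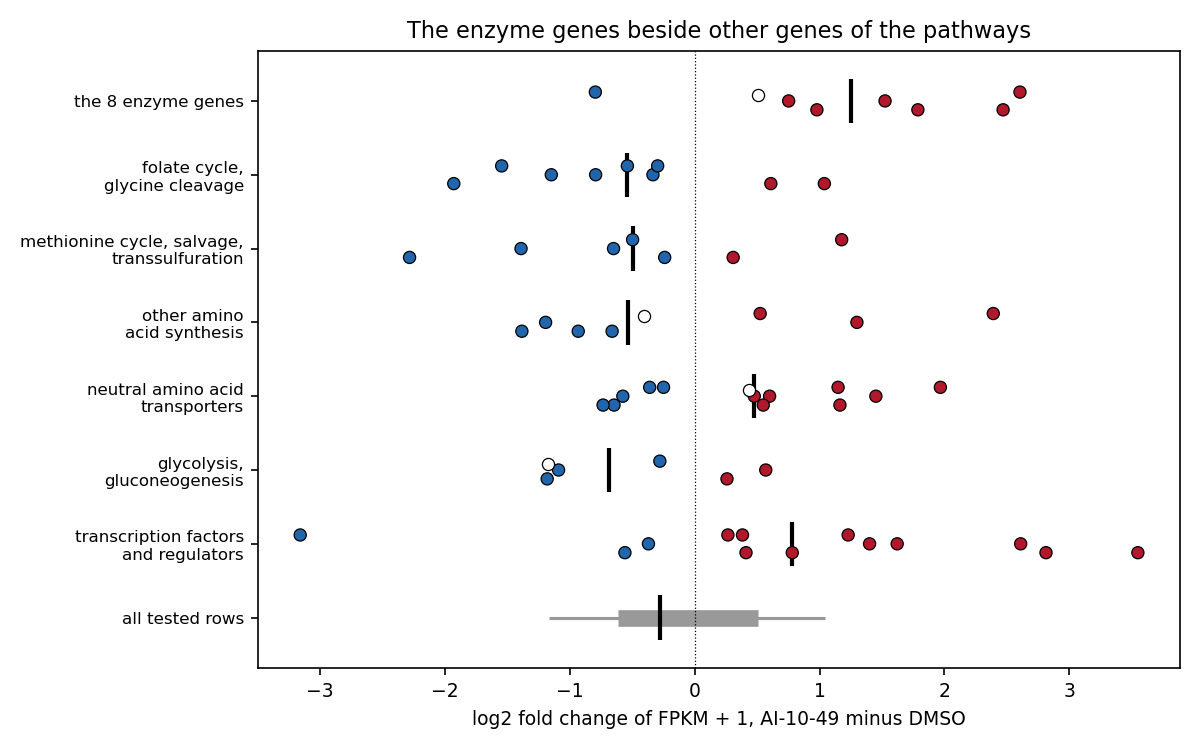
Log2 fold change of FPKM + 1 (horizontal axis, AI-10-49 minus DMSO) of the 8 enzyme genes and of the measured genes of 6 related lists, 1 point per gene, red where called higher, blue where called lower and white where not past the threshold, with vertical marks at medians and a small vertical offset between points. For all tested rows the thick and thin grey bars span the 25th to 75th and the 5th to 95th percentile. The median of the enzymes is 1.25 and that of all tested rows is -0.28.

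Profiles like those of the enzymes were sought among 5985 other tested rows with a single symbol, by the Euclidean distance over the 6 libraries of log2(FPKM + 1) relative to the DMSO mean of each row. The profile nearest to ASNS was that of JDP2, a repressor of AP-1 sites, at a distance of 0.12. TRIB3 (0.27), TSC22D3 (0.43), CDKN1A (0.47) and HIST1H2AC (0.47) followed. PSAT1 lay at 0.46 from ASNS, nearer than all but 3 of those rows, whereas MTHFD1 lay at 5.68. The mean profile of the 8 enzymes was nearest to CEBPG, a C/EBP family factor, at 0.08, then DENND5A (0.13), FAM53C (0.14), CHIC2 (0.15) and SLC1A4 (0.15). That mean is not the profile of any single enzyme: PSPH, the nearest, lay at 0.51, ASNS at 2.17, PSAT1 at 2.39 and MTHFD1 at 3.51. These distances weigh level-dependent readings of AI-10-49 replicate 2 along with the change itself, and they are given as a description.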

How the data were processed

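Per the submitters' processing notes, the tools were Bowtie2 2.1.0, Cufflinks 2.2.0 and Cuffdiff on hg19, in 90 bp paired-end reads. The authors deposited FPKM for 6339 rows and 6 libraries. Several genes share 198 of the rows, and 23 labels stand on more than 1 row. No source used here says how rows were selected. FPKM are not counts, and depth is unknown. Ratios of low DMSO values lay near whole-number ratios in 18.1% to 25.4% of 287 rows, against 23.5% to 24.3% after jitter. That check cannot decide on depth, since it made no allowance for depth differences between libraries.

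Values were taken as log2(FPKM + 1) into limma 3.58.1 (R 4.3.3) with a mean-variance trend, AI-10-49 minus DMSO, two-sided, for the 6230 rows whose mean reached 1 FPKM in a group. The adjustment was Benjamini-Hochberg over all of them. The procedure was tested on simulated data in which most rows were unchanged and no library stood apart. That setting differs from this table, so the simulation does not bear on the calls made here. The members, the related lists and the motifs were chosen with earlier results of these data known. Named were all measured members, up to 4 called genes of largest change per list and the 5 nearest profiles. EIF2AK1, EIF2AK3 and EIF2AK4 were named besides, to show both directions within their list. Alternatives were pseudocounts of 0.1 and 0.5, filters, scalings, a replicate block, no trend, thresholds and leaving out each library. Promoters came from RefSeq, GRCh38.p14. Python 3.11.15, SciPy 1.17.1 and Matplotlib 3.10.9 were also used.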

Additional observations from a re-analysis of the deposited data

How the results depend on the processing

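Of the 8 enzymes, 7 kept their direction and their call in all 14 alternative fits. Their log2 fold changes ran from 2.34 to 2.73 for ASNS, 1.44 to 2.04 for PHGDH, 2.55 to 2.74 for PSAT1, 0.92 to 1.04 for PSPH, 0.71 to 0.91 for MTHFD1L, -0.82 to -0.68 for MTHFD1 and 1.68 to 2.09 for PCK2. SHMT2 was called under quantile normalization (1.15) and without AI-10-49 replicate 2; leaving out single libraries gave 0.31 to 0.90. A minimum absolute log2 fold change of 1, which removes small changes by construction, left 4 enzymes called, 0 of them lower, and 836 rows of the table. The called glycolytic and gluconeogenic genes numbered 3 to 6 when single libraries were left out, with 5 in the full fit and 3 without AI-10-49 replicate 3 or without DMSO replicate 2. Of 335 values for the 24 list genes of largest change, 10 lost the call, all in PGK1, and the cause was not tested. Quantile normalization moved the median of all rows to -0.06 and that of the enzymes to 1.31. With the replicate block the same 7 enzymes were called, and ASNS stayed at 2.47. Deviations from the group means had r of -0.15, 0.147 and 0.247 for same-numbered libraries, and -0.254 to 0.205 for unlike-numbered ones. With 3 libraries per group and AI-10-49 replicate 2 apart, these values cannot decide on pairing. The main fit took the groups as unpaired. The ratio of MTHFD1L to MTHFD1 kept its direction throughout. Depth is unknown, so low values such as PHGDH rest on the spread between libraries alone.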
